A study of Mus musculus with 12 samples.

Results

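The endoplasmic reticulum (ER) folding machinery and its quality-control arm were followed as 34 named genes of mouse cumulus cells, which enclose the oocyte in the antral follicle. The genes were chosen by name, with earlier results of these data known. There were 4 for the stress sensors and their transcription factor Xbp1, 11 for chaperones and co-chaperones, 7 for disulfide enzymes, 10 for ER-associated degradation (ERAD) and 2 for the translocon. Of the 34, 32 were listed in at least 1 library and 31 in all 6, out of 13318 genes listed in any library and 9237 listed in all. Of the 6 RNA libraries, 3 came from Kunming mouse cumulus cells given FSH and FBS for 18 hours, and the other 3 came from Kunming cumulus cells labelled as untreated. The submitters' design text also describes complexes with the oocyte in a medium that allows expansion and complexes without the oocyte in a medium that triggers apoptosis, but the sample labels do not say which libraries, if any, had the oocyte removed.

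Proteins that enter the ER are folded by chaperones, cross-linked by disulfide isomerases and, where folding fails, pulled back out and degraded, which is ERAD. When unfolded proteins build up, the sensors IRE1, ATF6 and PERK start the unfolded protein response: IRE1 cuts a short intron out of the Xbp1 mRNA, ATF6 is released as a transcription factor, and PERK slows translation while favouring that of ATF4. Cumulus cells secrete matrix proteins and carry receptors that pass through this machinery.

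RNA abundance was deposited as FPKM, a read abundance scaled to transcript length and library size, for first exons, last exons, introns and exon choices of each gene. Each gene was given, per library, the first-exon sum or the last-exon sum of its FPKM, whichever was larger. Between 10475 and 11398 genes were listed per library given FSH and FBS, and between 10786 and 11552 per untreated library; sequencing depth is unknown. Libraries 1 and 2 of each group were nearly alike, with a median absolute log2 difference of 0.122 between the FSH and FBS pair and 0.145 between the untreated pair, against 0.414 to 0.551 for the pairs with library 3. Their mean was therefore used as 1 sample, which gives n = 2 in each group. Nothing in the labels says that libraries came from separate animals or cultures, so the p-values speak only for the spread among these samples, possibly a technical one. Granulosa markers were present, with 13 of 15 listed and sums of 666 to 1008 FPKM in libraries given FSH and FBS, against 1325 to 1540 FPKM in untreated libraries. Without Gja1, the highest of them, the sums overlapped, at 546, 561 and 425 FPKM in libraries given FSH and FBS, against 512, 546 and 616 FPKM in untreated libraries, and single markers differed in both directions. Of 25 oocyte markers 19 were listed, with sums of 69.8, 60.9 and 253 FPKM in libraries given FSH and FBS, against 109, 174 and 94.6 FPKM in untreated libraries, so that FSH and FBS library 3 was the highest of all. Without Uchl1, the highest marker, they summed to 0.260, 0.183 and 31.1 FPKM in libraries given FSH and FBS, against 33.0, 33.8 and 42.8 FPKM in untreated libraries. Theca and stroma markers, 9 of 11 listed, summed to 21.8, 21.2 and 24.5 FPKM in libraries given FSH and FBS, against 83.8, 82.1 and 66.5 FPKM in untreated libraries. Without Acta2, the highest of them, the sums were 8.19, 6.66 and 7.03 FPKM, against 17.2, 14.4 and 8.21 FPKM in untreated libraries, closest in library 3. Leukocyte markers, 10 of 16 listed, summed to 203, 203 and 340 FPKM in libraries given FSH and FBS, against 454, 9.11 and 472 FPKM in untreated libraries. Cd79a, the highest of them, was not listed in untreated library 2. Without Cd79a, the sums were 4.18, 2.96 and 7.50 FPKM, against 10.8, 9.11 and 12.6 FPKM in untreated libraries. Endothelial markers summed to at most 3.37 FPKM and erythroid markers to at most 1.92 FPKM in any library. The part of these other cells in the results was not tested. In bulk RNA such as this, fewer cells of a type and less RNA per cell cannot be told apart.

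The promoters of several members carry the ER stress response element, and 3 are shown because they belong to the central ER chaperone gene, Hspa5, and to the ERAD genes that moved furthest in opposite directions, Herpud1 and Derl3. The windows run from 250 bases before to 50 bases after the annotated start, from RefSeq GRCm38.p6: chr2:34771840-34772139 on the plus strand for Hspa5, chr8:94386179-94386478 on the plus strand for Herpud1 and chr10:75893148-75893447 on the plus strand for Derl3. Capitals mark the letters CCAAT and CCACG of the longer element, which lie 9 bases apart, in Hspa5, the same element on the opposite strand in Derl3, and the ATTGG and CCACG of a shorter element, 1 base apart, in Herpud1.
Hspa5: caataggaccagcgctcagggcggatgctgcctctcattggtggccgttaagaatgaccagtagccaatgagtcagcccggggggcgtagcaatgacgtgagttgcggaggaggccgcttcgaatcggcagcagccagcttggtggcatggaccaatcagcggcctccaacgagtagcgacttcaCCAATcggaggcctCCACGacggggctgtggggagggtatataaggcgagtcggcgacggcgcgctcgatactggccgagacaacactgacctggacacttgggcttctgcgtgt
Herpud1: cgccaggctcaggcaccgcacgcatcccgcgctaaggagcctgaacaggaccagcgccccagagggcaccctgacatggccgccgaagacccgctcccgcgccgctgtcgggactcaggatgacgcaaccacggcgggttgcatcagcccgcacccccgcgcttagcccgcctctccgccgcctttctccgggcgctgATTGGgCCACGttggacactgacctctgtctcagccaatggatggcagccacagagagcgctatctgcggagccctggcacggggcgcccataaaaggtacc
Derl3: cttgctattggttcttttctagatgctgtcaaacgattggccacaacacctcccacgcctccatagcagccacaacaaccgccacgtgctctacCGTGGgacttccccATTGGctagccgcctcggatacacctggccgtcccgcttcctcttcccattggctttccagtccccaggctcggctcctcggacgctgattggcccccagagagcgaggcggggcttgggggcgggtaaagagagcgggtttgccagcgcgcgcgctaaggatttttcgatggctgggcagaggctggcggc

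Both strands of the 300-base windows of 32851 RefSeq promoters were searched. The longer element was found in 39 promoters (0.119%) and in those of 9 of the 30 member genes with a promoter entry (30%). Shares over all promoters are per promoter entry, and those of members are per gene. The matches are given in the direction of the element, since their spacers differ while the ends do not, with Hsp90b1 holding a pair of matches.
Hspa5: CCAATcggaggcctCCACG
Hsp90b1, first: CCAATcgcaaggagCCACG
Hsp90b1, second: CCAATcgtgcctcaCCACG
Calr: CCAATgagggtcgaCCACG
Canx: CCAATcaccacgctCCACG
Creld2: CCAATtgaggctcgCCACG
Dnajc3: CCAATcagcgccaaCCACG
Pdia6: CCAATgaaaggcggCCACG
Syvn1: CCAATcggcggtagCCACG
Derl3: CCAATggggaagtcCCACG

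The shorter element was in 12 promoters (0.0365%), among them Herpud1 and Dnajb11. TGACGTGG, an unfolded protein response element, was in 222 promoters (0.676%) and in those of none of the 30 member genes. CCACG alone was in 32.8% of all promoters and 25 of the 30, and CCAAT alone in 37.4% and 22 of the 30, both overlapping with the longer element. No entry was found for Derl1, Manf, Hyou1 and Atf6. The 9 tested members with either element had a median log2 fold change of 0.88, with a range of -1.84 to 1.97, and the 18 tested members with neither had a median of 1.07, with a range of 0.05 to 2.02. A match is only a description of letters, and the element was present both in members at higher FPKM after FSH and FBS and in Derl3, which was lower.

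Across the group, RNA of ER folding and ERAD genes lay higher after FSH and FBS, and 1 gene, Derl3, went the other way. Of 31 tested members, 30 had a positive log2 fold change, against 67.2% of all 9022 genes tested, and their median was 1.15 against 0.24 for all genes. The fold change was at least 1 on the log2 scale in 18 members, against 10.6% of all genes. In 25 members all 3 FSH and FBS libraries lay above all 3 untreated libraries, which was so for 29.4% of all genes, and in 1 member they all lay below, against 9.54% of all genes. Because the median of all genes was itself 0.24, a member at that value moved with the bulk, and 29 members lay above it. The members were chosen with earlier results of these data known, so these counts describe them and do not test the list.

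Few members passed the test in spite of these counts. On log2(FPKM + 1), limma called 2 members higher (background 1.68% of 9022 genes), Herpud1 and Ero1l, and 1 member lower (background 0.687%), Derl3, at a Benjamini-Hochberg adjusted p under 0.05 over all genes tested. At an unadjusted p under 0.05 there were 23 members, against 1485 of all 9022 genes. With the 6 libraries taken as separate replicates, limma called 24 members higher (background 10.8%) and 1 lower (background 3.88%), a fit whose p-values are too small where near-copies are counted as replicates. Without untreated library 3, limma called no member (8 at an unadjusted p under 0.05), and without FSH and FBS library 3 it called 5 higher and 1 lower. After rescaling by median of ratios it called none higher and 1 lower (18 at an unadjusted p under 0.05). The excess of the members' median over that of all genes was between 0.83 and 0.93 under every setting tried. A fold change on the log2(FPKM + 1) scale understates the change of genes with low FPKM.

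**Figure D1:**
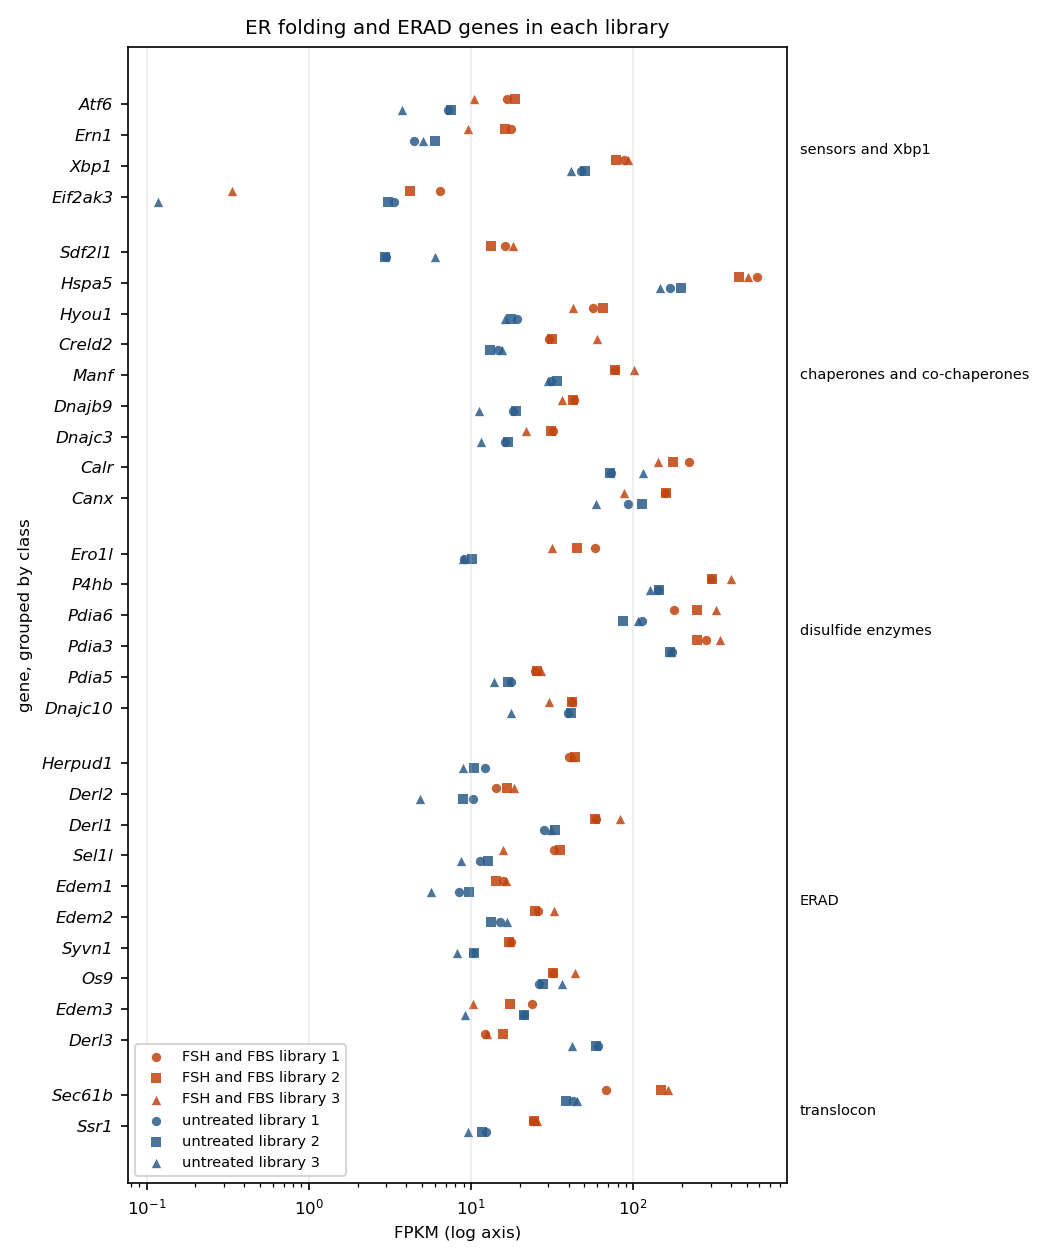
FPKM of the 31 members listed in all 6 libraries, on a log axis, grouped by class, with 1 symbol per library (orange, FSH and FBS; blue, untreated; triangles, library 3). The orange symbols lie to the right of the blue ones in 25 members, and in Derl3 all of them lie to the left.

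**Figure D2:**
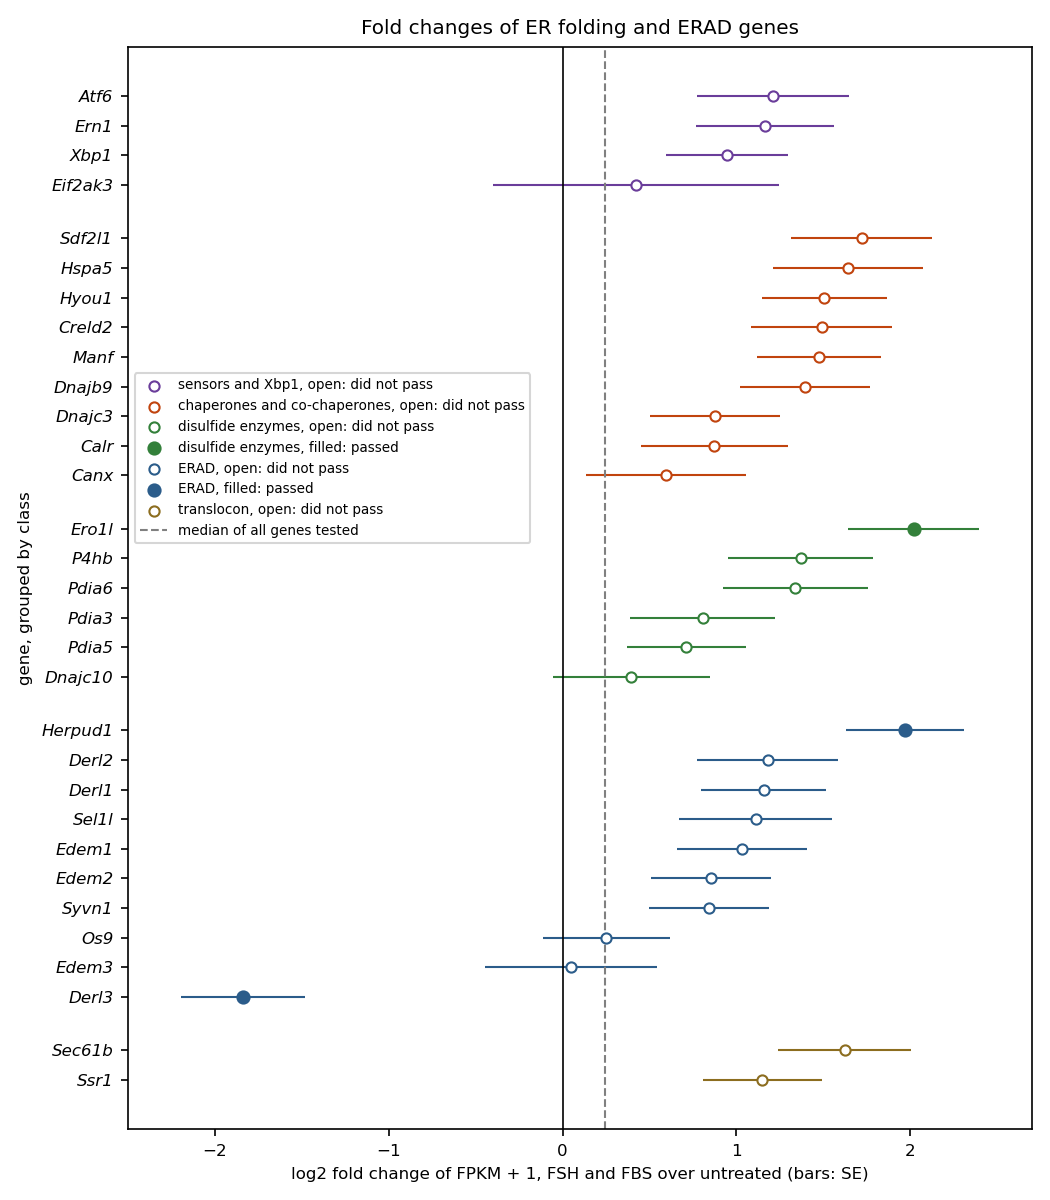
Log2 fold change of FPKM + 1, FSH and FBS over untreated, for each tested member with its SE (bars), colored by class; filled symbols passed the limma test at an adjusted p under 0.05. The dashed line is the median of all genes tested, 0.24, and 29 of the 31 members lie to its right.

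Among the sensors, RNA of IRE1 (Ern1) and ATF6 lay above untreated cells in every library, and that of PERK (Eif2ak3) varied more between libraries than between groups. The main first exon of Eif2ak3 was not listed in untreated library 3. None of the 4 genes of this class was called by limma (3 at an unadjusted p under 0.05, against 1485 of all 9022 genes). With 6 separate libraries 3 were called, against 1323 of all 9022 genes. Ern1, whose product is the kinase and endonuclease that cuts Xbp1 mRNA, was at 17.7, 16.3 and 9.59 FPKM in libraries given FSH and FBS, against 4.43, 6.03 and 5.08 FPKM in untreated libraries. The groups did not overlap, and FSH and FBS library 3 was the lowest of its group; the log2 fold change was 1.16 (SE 0.40, limma adjusted p = 0.205). Atf6, encoding the membrane-bound transcription factor, was at 16.7, 18.6 and 10.4 FPKM in libraries given FSH and FBS, against 7.23, 7.49 and 3.76 FPKM in untreated libraries. Library 3 was the lowest in both groups, which did not overlap, and the log2 fold change was 1.21 (SE 0.44, limma adjusted p = 0.233).

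Eif2ak3, the gene of PERK, was at 6.44, 4.20 and 0.335 FPKM in libraries given FSH and FBS, against 3.36, 3.06 and 0.117 FPKM in untreated libraries. Both library 3 values were far below the others and the groups overlapped. The main first exon was at 6.27, 4.12 and 0.243 FPKM in libraries given FSH and FBS, against 3.28 and 3.06 FPKM in untreated libraries 1 and 2. It was not listed in untreated library 3, whose 0.117 FPKM came from an inner first exon alone. That value thus lacks the main form and is not a measured drop. The log2 fold change of Eif2ak3 was 0.42 with an SE of 0.82 (limma adjusted p = 0.841), and it was -0.53 without untreated library 3. Xbp1, the transcription factor downstream of IRE1, was at 88.0, 78.3 and 93.0 FPKM in libraries given FSH and FBS, against 47.6, 50.7 and 41.6 FPKM in untreated libraries. All 3 libraries lay above all untreated ones, with a log2 fold change of 0.94 (SE 0.35, limma adjusted p = 0.248). From last-exon rows alone, which are few for this gene, the value was -0.65.

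The Xbp1 rows also held the form that IRE1 makes. The intron of 26 bases on chromosome 11, from 5524278 to 5524303 in the coordinates of the files, was listed as removed at 10.7, 6.84 and 21.7 FPKM in libraries given FSH and FBS and in no untreated library. Its listed counterpart, in which the exon keeps these 26 bases, was at 63.4, 58.9 and 68.6 FPKM in libraries given FSH and FBS, against 28.9 and 27.1 FPKM in untreated libraries 1 and 3, and was not listed in untreated library 2. In that library the same uncut exon was listed at 33.5 FPKM in the removed form of the upstream intron. Other listed forms, such as that with the upstream intron kept, also hold these 26 bases and are not counted in this pair. The removed form was 14.5%, 10.4% and 24.1% of the listed removed and kept FPKM in libraries given FSH and FBS, highest in library 3. An unlisted form is missing and not a measured 0, so no share can be given for untreated cells, and total Xbp1 was also lower there. Listing in all 3 FSH and FBS libraries and in no untreated library was seen for 54 of 8124 introns with a removed form (0.665%), and the reverse listing for 27 (0.332%). Introns of 30 bases or fewer made up 8 of the 8124 (0.0985%).

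The neighboring Xbp1 intron of 771 bases, from 5523468 to 5524238, showed the opposite listing. Its kept form was listed in no FSH and FBS library and at 7.30, 5.61 and 7.42 FPKM in untreated libraries, where it was 20.1%, 14.3% and 21.5% of the removed and kept FPKM. Its removed form was at 63.4, 58.9 and 68.6 FPKM in libraries given FSH and FBS, against 28.9, 33.5 and 27.1 FPKM in untreated libraries. Other listed forms also lack this intron and are not counted in this pair. Among them are that with the 26 bases removed and a form at 1.43, 4.27 and 2.50 FPKM in untreated libraries. The shares therefore hold for this pair only. A kept form listed in all 3 untreated libraries and in no FSH and FBS library was seen for 88 of 6426 introns (1.37%), and the reverse listing for 13 (0.202%).

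**Figure D3:**
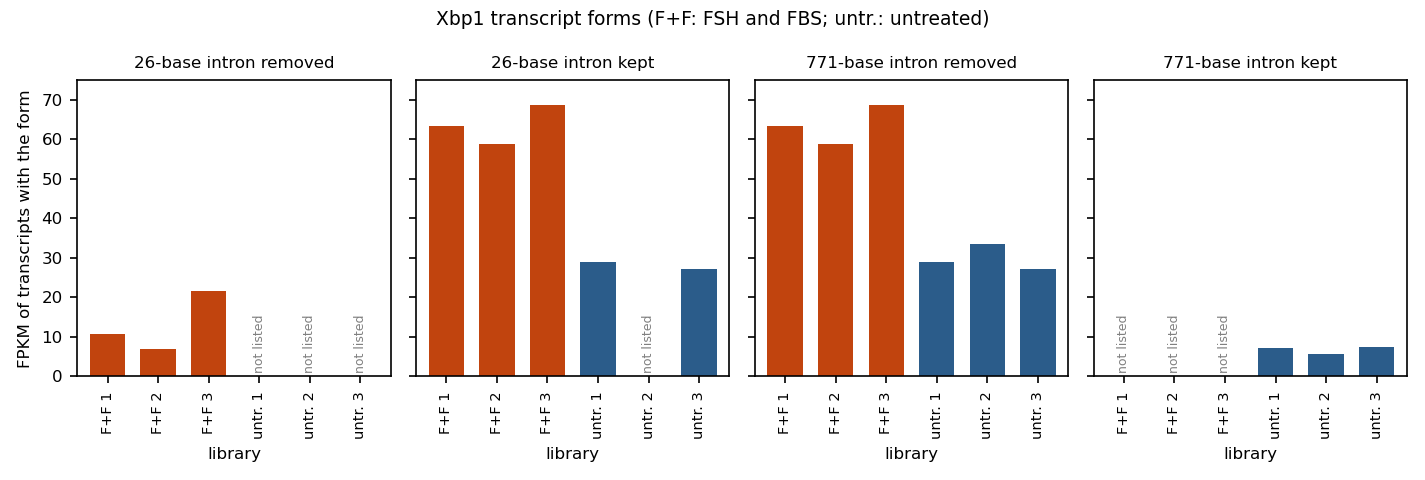
FPKM of Xbp1 transcripts with the 26-base intron removed or kept and with the 771-base intron removed or kept, 1 bar per library (F+F, FSH and FBS; untr., untreated). The 26-base removed form is listed at 6.84 to 21.7 FPKM in libraries given FSH and FBS only, and the 771-base kept form at 5.61 to 7.42 FPKM in untreated libraries only.

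Chaperones and co-chaperones had the highest median fold change of the classes with more than 2 tested members, 1.48 over 9 tested of 11 named. In 8 of the 9 all FSH and FBS libraries lay above all untreated ones, against 29.4% of all genes. None was called by limma (7 at an unadjusted p under 0.05, against 1485 of all 9022 genes). With 6 separate libraries 8 were called, against 1323 of all 9022 genes. Hspa5 encodes BiP, the ER Hsp70 that binds unfolded chains and keeps the sensors silent. As first-exon sums, it was at 578, 452 and 510.1 FPKM in libraries given FSH and FBS, against 169, 198 and 146 FPKM in untreated libraries. Last exons alone gave 310, 448 and 451.5 FPKM in libraries given FSH and FBS, with library 1 the lowest of its group. Untreated libraries then stood at 167, 122 and 145 FPKM (log2 fold change from last exons 1.51). By either sum every FSH and FBS library lay far above every untreated library. From first exons the log2 fold change of Hspa5 was 1.64 (SE 0.43, limma adjusted p = 0.111). It passed without FSH and FBS library 3.

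Sdf2l1, a partner of the BiP cycle that slows aggregation, had the largest fold change of the class. It was at 16.2, 13.3 and 18.1 FPKM in libraries given FSH and FBS, against 2.98, 2.95 and 5.97 FPKM in untreated libraries, with no overlap (log2 fold change 1.72, SE 0.41, limma adjusted p = 0.0775). Hyou1, the large Hsp70-like nucleotide exchange factor of BiP, was at 51.8 ± 12.8 FPKM in FSH and FBS cells and 17.3 ± 1.51 FPKM in untreated cells (SD, n = 2). Its log2 fold change of 1.51 (SE 0.36) had a limma adjusted p of 0.0782. Manf, a secreted ER stress protein that binds BiP, was at 89.3 ± 17.1 FPKM in FSH and FBS cells and 31.2 ± 1.81 FPKM in untreated cells (SD, n = 2).

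The J-domain co-chaperones, which hand substrates to BiP, moved less evenly. Dnajb9 was at 39.8 ± 4.67 FPKM in FSH and FBS cells and 14.9 ± 5.13 FPKM in untreated cells, and Dnajc3, which also inhibits PERK, at 26.7 ± 6.73 FPKM in FSH and FBS cells and 14.1 ± 3.57 FPKM in untreated cells (SD, n = 2 each). Dnajb11 had no first or last exon row in untreated library 2 and was not tested. Its exon chain that was listed in every library stood at 48.8, 32.8 and 33.6 FPKM in libraries given FSH and FBS, against 13.2, 24.2 and 20.2 FPKM in untreated libraries, without overlap. Creld2, an ER stress-inducible protein of the ER lumen, was at 30.5, 31.4 and 59.7 FPKM in libraries given FSH and FBS, against 14.6, 13.0 and 15.6 FPKM in untreated libraries. The groups did not overlap, and FSH and FBS library 3 stood well above the other 5 libraries.

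The lectin chaperones calreticulin and calnexin hold glycoproteins while they fold. Calr was at 219.6, 176 and 142 FPKM in libraries given FSH and FBS, against 72.7, 72.0 and 115 FPKM in untreated libraries, where the groups came closest in library 3. Canx had the smallest fold change of the class, with 158, 160.4 and 87.8 FPKM in libraries given FSH and FBS, against 92.6, 113 and 59.0 FPKM in untreated libraries. It was the 1 tested chaperone whose groups overlapped, and library 3 was the lowest in both (log2 fold change 0.59, SE 0.46, limma adjusted p = 0.573).

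Hsp90b1, the gene of the ER Hsp90 GRP94, had no row under its own ID. Rows on chromosome 10 at its position, from 86690209 to 86705509 on the minus strand, carried the ID of Gm25745, and their span of 15301 bases was that of a whole gene. They stood at 459, 431 and 528 FPKM in libraries given FSH and FBS, against 203, 205 and 194 FPKM in untreated libraries, without overlap (log2 fold change 1.28, SE 0.43, limma adjusted p = 0.205). Because the IDs differ, these rows were not counted among the members.

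Disulfide enzymes included 1 call, Ero1l, higher (background 1.68%), among 6 tested of 7 named. In 5 of the 6 all FSH and FBS libraries lay above all untreated ones, against 29.4% of all genes (class median log2 fold change 1.07). Ero1l encodes ERO1-alpha, the oxidase that recharges protein disulfide isomerase. It was at 58.4, 45.3 and 31.6 FPKM in libraries given FSH and FBS, against 9.03, 10.2 and 8.89 FPKM in untreated libraries. These values are last-exon sums. In the libraries given FSH and FBS and in untreated library 3 they add a nearer last exon, which untreated libraries 1 and 2 did not list. The untreated libraries lay close together, the FSH and FBS libraries were spread, with library 3 the lowest, and the groups did not overlap. The log2 fold change was 2.02 (SE 0.38, limma adjusted p = 0.0344), the largest of all 31 members, and the call was lost under all 3 rescalings, with first exons only, with unlisted genes as 0 and without untreated library 3. In first-exon rows alone the groups overlapped, with 34.4, 18.8 and 8.96 FPKM in libraries given FSH and FBS, against 9.03, 5.26 and 3.77 FPKM in untreated libraries. The log2 fold change from first exons was 1.41 (limma adjusted p = 0.371). Where the nearer last exon was listed, its FPKM was the same as that of the first exon.

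P4hb, the gene of protein disulfide isomerase itself, was at 303, 305 and 403 FPKM in libraries given FSH and FBS, against 142, 144 and 127 FPKM in untreated libraries. These groups did not overlap, with FSH and FBS library 3 the highest (log2 fold change 1.37, SE 0.42, limma adjusted p = 0.161). Pdia6, an isomerase that also acts on the IRE1 sensor, was at 179, 246 and 325 FPKM in libraries given FSH and FBS, against 113, 86.8 and 107 FPKM in untreated libraries. Pdia3, the partner of calnexin and calreticulin, was at 302 ± 54.0 FPKM in FSH and FBS cells and 171 ± 0.321 FPKM in untreated cells (SD, n = 2), and Pdia5, another isomerase, at 26.0 ± 1.18 FPKM in FSH and FBS cells and 15.5 ± 2.45 FPKM in untreated cells (SD, n = 2). Neither passed (limma adjusted p of 0.385 for Pdia3 and 0.348 for Pdia5).

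Dnajc10, the reductase that opens disulfides before ERAD, had the smallest fold change of the disulfide class. It was at 41.8, 41.8 and 30.4 FPKM in libraries given FSH and FBS, against 39.4, 41.5 and 17.7 FPKM in untreated libraries. The groups overlapped, and libraries 1 and 2 of both groups lay close together (log2 fold change 0.39, SE 0.45, limma adjusted p = 0.711), and the value was -0.18 without untreated library 3. Pdia4 had no row under its own ID. Rows at its position on chromosome 6, from 47796142 to 47813512 on the minus strand, carried the ID of Mir704 and stood at 99.8, 101 and 79.5 FPKM in libraries given FSH and FBS, against 67.5, 65.5 and 52.0 FPKM in untreated libraries (log2 fold change 0.60, SE 0.37, limma adjusted p = 0.469).

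ERAD was the class with members on both sides. All 10 genes were tested, and limma called 1 higher (background 1.68%) and 1 lower (background 0.687%). In 7 all FSH and FBS libraries lay above all untreated ones, against 29.4% of all genes. In 1 they all lay below, a share near the 9.54% of all genes. Herpud1 encodes HERP, which gathers the retrotranslocation complex at the ER membrane. It was at 40.1, 44.0 and 42.4 FPKM in libraries given FSH and FBS, against 12.1, 10.4 and 8.94 FPKM in untreated libraries. The libraries of each group lay close together and the groups were far apart (log2 fold change 1.97, SE 0.34, limma adjusted p = 0.0271). The call was lost by median of ratios, with equal sums, with first exons only and without untreated library 3.

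The 3 derlins, which form the channel or docking site through which substrates leave the ER, went different ways. Derl3 fell to 12.2, 15.7 and 12.5 FPKM in libraries given FSH and FBS, against 60.4, 59.0 and 41.7 FPKM in untreated libraries. Every FSH and FBS library was far below every untreated library, with a log2 fold change of -1.84 (SE 0.36, limma adjusted p = 0.0405). Among the 31 members ordered by FPKM it was number 30 in FSH and FBS cells and number 7 in untreated cells. It did not pass without untreated library 3, without FSH and FBS library 1, with equal sums, with first exons only or with unlisted genes as 0, while its log2 fold change lay between -2.13 and -1.76 under every setting tried.

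Derl2 was at 14.3, 16.6 and 18.4 FPKM in libraries given FSH and FBS, against 10.2, 8.96 and 4.86 FPKM in untreated libraries. It was thus the second largest positive fold change of the class after Herpud1, without overlap between groups (log2 fold change 1.18, SE 0.41, limma adjusted p = 0.212). Derl1 was at 59.2, 58.4 and 83.5 FPKM in libraries given FSH and FBS, against 28.3, 32.8 and 31.3 FPKM in untreated libraries (log2 fold change 1.16, SE 0.36, limma adjusted p = 0.168). FPKM is a value per length, and by it Derl3 had the highest level of the 3 derlins in every untreated library and the lowest in every FSH and FBS library, where library 2 put it just under Derl2.

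The forms of Derl3 were listed unequally. The fully spliced exon chain was at 10.6, 10.2 and 7.29 FPKM in libraries given FSH and FBS, against 32.0, 34.5 and 21.9 FPKM in untreated libraries. Forms that keep the intron of 371 bases, on chromosome 10 from 75894061 to 75894431, were at 1.63, 1.81 and 1.08 FPKM in libraries given FSH and FBS, against 19.6, 16.0 and 9.21 FPKM in untreated libraries. These values join different forms. In FSH and FBS library 3 the form kept this intron and not the next, of 411 bases. In every other library it kept both introns, a form that FSH and FBS library 3 did not list. The spliced chain was thus lower in every FSH and FBS library, and so was the listed FPKM of forms keeping the 371-base intron.

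The ubiquitin ligase core of ERAD and the mannosidase-like factors that mark glycoproteins for it lay higher by smaller amounts. Syvn1, the ligase HRD1, was at 17.3 ± 0.0560 FPKM in FSH and FBS cells and 9.28 ± 1.53 FPKM in untreated cells, and its adaptor Sel1l at 24.9 ± 12.9 FPKM in FSH and FBS cells and 10.3 ± 2.43 FPKM in untreated cells (SD, n = 2 each). The Syvn1 sums include forms that keep an intron. In untreated library 3 its 209-base intron was listed as kept at 7.94 FPKM and as removed at 0.257 FPKM. Sel1l passed without FSH and FBS library 3. Edem1 was at 15.7 ± 1.03 FPKM in FSH and FBS cells and 7.36 ± 2.43 FPKM in untreated cells, and Edem2 at 28.9 ± 4.93 FPKM in FSH and FBS cells and 15.5 ± 1.83 FPKM in untreated cells (SD, n = 2 each). The libraries of these 4 genes did not overlap between groups, and their log2 fold changes were 0.84, 1.11, 1.03 and 0.85, with limma adjusted p between 0.233 and 0.281.

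Edem3, of the same family, and the lectin Os9, which hands glycoproteins to SEL1L, stood near the bulk of genes. Edem3 was at 23.6, 17.4 and 10.3 FPKM in libraries given FSH and FBS, against 21.3, 21.2 and 9.21 FPKM in untreated libraries. The groups overlapped throughout and library 3 was the lowest in both (log2 fold change 0.05, SE 0.50, limma adjusted p = 0.976), and the value was -0.064 without FSH and FBS library 1 and -0.51 without untreated library 3. Os9 was at 32.1, 32.1 and 43.8 FPKM in libraries given FSH and FBS, against 26.1, 27.7 and 36.5 FPKM in untreated libraries (log2 fold change 0.25, SE 0.37, limma adjusted p = 0.775). The direction of both turned under each of the 3 rescalings, to between -0.23 and -0.17 for Edem3 and between -0.12 and -0.016 for Os9.

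At the translocon, the channel through which nascent chains enter the ER, both members lay higher and neither was called by limma. Both were at an unadjusted p under 0.05, against 1485 of all 9022 genes. Both were called with 6 separate libraries, against 1323 of all 9022 genes. Sec61b, the beta subunit of the channel, was at 68.2, 148 and 164 FPKM in libraries given FSH and FBS, against 42.3, 38.7 and 44.8 FPKM in untreated libraries. The groups did not overlap, but FSH and FBS libraries 1 and 2, nearly alike for most genes, differed here (log2 fold change 1.62, SE 0.38, limma adjusted p = 0.0775). It passed without FSH and FBS library 1. Ssr1, a subunit of the translocon-associated complex, was at 24.1, 24.6 and 25.5 FPKM in libraries given FSH and FBS, against 12.4, 11.6 and 9.53 FPKM in untreated libraries. Its libraries were tight within both groups, and the log2 fold change was 1.15 (SE 0.34, limma adjusted p = 0.152).

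Summed over the 31 members, RNA of the machinery amounted to 2667 ± 151 FPKM in FSH and FBS cells and 1199 ± 93.3 FPKM in untreated cells (SD, n = 2), a ratio of 2.22. Chaperones summed to 1075 ± 77.6 FPKM in FSH and FBS cells and 436 ± 36.5 FPKM in untreated cells, a ratio of 2.47, and ERAD genes to 284 ± 12.7 FPKM in FSH and FBS cells and 188 ± 23.5 FPKM in untreated cells, a ratio of 1.51. Disulfide enzymes, sensors and the translocon had ratios of 2.22, 2.05 and 3.01. The exact permutation test gave a two-sided p of 0.33 for each sum, the smallest that 2 samples against 2 allow. The ERAD share of the whole was 10.5%, 10.9% and 10.6% in libraries given FSH and FBS, against 16.3%, 16.1% and 15.2% in untreated libraries, without overlap. Derl3 alone held 60.4, 59.0 and 41.7 FPKM of the untreated ERAD sums of 204, 206 and 172 FPKM.

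Lists of neighboring ER genes had lower medians than the members. Over all 9022 genes, 1485 were at an unadjusted p under 0.05 and 1323 were called with 6 separate libraries. Of 23 tested genes of ER entry and glycosylation, limma called none (13 at an unadjusted p under 0.05, and 10 called with 6 separate libraries), and their median log2 fold change was 0.89. Sec11c, of the signal peptidase, was at 20.8, 19.5 and 39.8 FPKM in libraries given FSH and FBS, against 8.11, 5.29 and 7.97 FPKM in untreated libraries (limma adjusted p = 0.0685). Of 30 genes of glycoprotein folding and ER export none was called (6 at an unadjusted p under 0.05, and 6 called with 6 separate libraries; median 0.67), shares near those of all genes. Among these Fkbp11, an ER prolyl isomerase, was at 27.8 ± 13.0 FPKM in FSH and FBS cells and 6.55 ± 3.72 FPKM in untreated cells (SD, n = 2; limma adjusted p = 0.0945).

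Outside the 10 ERAD members, the other 23 tested ERAD and extraction factors had a median of 0.47 with none called (2 at an unadjusted p under 0.05, and 4 called with 6 separate libraries). Selenos, which recruits the extraction ATPase p97 to the ER membrane, was at 68.0 ± 21.5 FPKM in FSH and FBS cells and 31.1 ± 1.82 FPKM in untreated cells (SD, n = 2; limma adjusted p = 0.221). Of 12 other regulators of the unfolded protein response none was called (6 at an unadjusted p under 0.05, and 5 called with 6 separate libraries; median 0.78), and Creb3l1, an ATF6-related factor, was at 30.2 ± 4.93 FPKM in FSH and FBS cells and 10.6 ± 1.12 FPKM in untreated cells (SD, n = 2; limma adjusted p = 0.0868). Cytosolic and mitochondrial chaperones stood nearest to all genes, with a median of 0.36 over 30 genes. Of these, 4 were at an unadjusted p under 0.05 and 4 were called with 6 separate libraries. In the main fit 1 was called higher (3.33%, background 1.68%). Their 1 called member, Lonp1, is a protease of mitochondria, at 105, 106 and 106 FPKM in libraries given FSH and FBS, against 27.9, 27.7 and 27.8 FPKM in untreated libraries (log2 fold change 1.89, limma adjusted p = 0.0312).

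Genes of the PERK and ATF4 branch spread widest. Of 15 tested, limma called 4 higher (background 1.68%) and none lower (background 0.687%), with 8 at an unadjusted p under 0.05 and 7 called with 6 separate libraries, and the median was 1.08. Asns, asparagine synthetase, was at 146, 201 and 206 FPKM in libraries given FSH and FBS, against 20.2, 20.9 and 22.6 FPKM in untreated libraries. Atf5, a transcription factor translated under stress, was at 181, 178 and 221 FPKM in libraries given FSH and FBS, against 23.6, 24.2 and 29.0 FPKM in untreated libraries. Chac1, which degrades glutathione, and Nupr1, a small stress-induced nuclear protein named after its value was seen, were the other calls, with log2 fold changes of 4.22 and 3.53 (limma adjusted p = 0.00309 for Chac1 and 0.0112 for Nupr1). All 4 fold changes were above that of any ER folding or ERAD member. Whether the medians of these lists differ from that of the members was not tested.

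**Figure D4:**
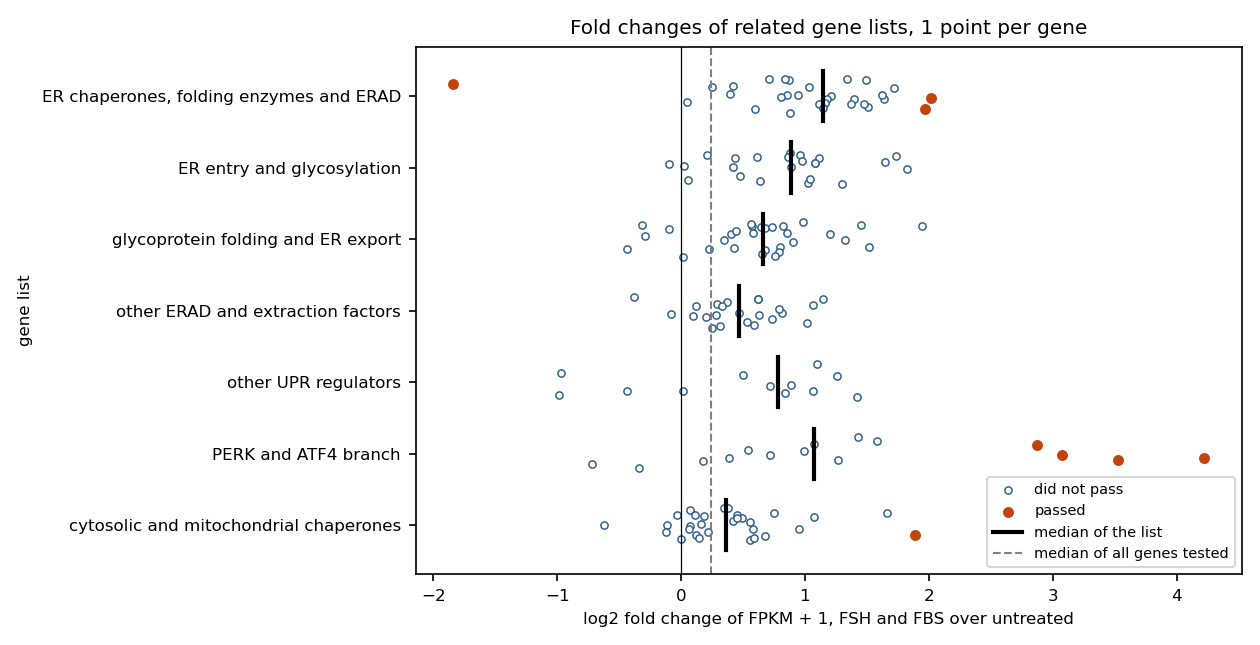
Log2 fold change of FPKM + 1, FSH and FBS over untreated, with 1 point per tested gene for the members and 6 related lists; filled points passed the limma test at an adjusted p under 0.05 and the thick bar is the median of the list. The medians run from 0.36 for cytosolic and mitochondrial chaperones to 1.15 for the members, and the 4 filled points of the PERK and ATF4 branch lie farthest right.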

How the data were processed

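RNA tables of 6 libraries of mouse cumulus cells, 3 given FSH and FBS for 18 hours and 3 untreated, were used, and the small-RNA libraries were not used here. Per the submitters' processing notes, the aligner was HISAT2 2.0.1. The deposited tables give FPKM per transcript event, per the file headers. Assembler, filters and genome build are not given in the sources used here, and 98.98% of 12765 genes compared overlapped their RefSeq GRCm38.p6 position. No event is listed at 0, so an unlisted event was treated as missing. The tables hold no counts, so depth is unknown and no counting interval is given. Symbols matched 13281 of 13318 gene IDs.

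Libraries 1 and 2 of a group, which differed more than 2-fold in 2.82% and 4.54% of genes against 13.8% to 22.7% for other pairs, were averaged. A two-sided trended fit in limma 3.58.1 (R 4.3.3), tested on simulated data, used log2(FPKM + 1) of the 9022 genes that every library listed and whose mean reached 1 FPKM. Adjustment was by Benjamini-Hochberg and the threshold was 0.05. Sums were compared by an exact permutation test. Alternatives were 6 separate libraries, a replicate block, 3 rescalings, a pseudocount of 0.1, a mean of at least 5 FPKM or none, first or last exons only, unlisted as 0, and each library left out. Values in every library were given for called members, Hspa5, Xbp1, the sensors and the 2 largest and the smallest fold change of each class, with others added; of the related lists up to 3 genes with the smallest adjusted p could be named, of which 1 is not reported here. Members and lists were chosen with earlier results of these data known. Tables and plots were made with Python 3.11.15, pandas 2.3.3 and matplotlib 3.10.9.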

Additional observations from a re-analysis of the deposited data

How the results depend on the processing

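Counts of called members depended on the setting. limma called 2 members higher and 1 lower with libraries 1 and 2 averaged. It called 24 higher with 6 separate libraries and 18 with the replicate block (1040 of 9022 genes), whose numbers are shared by 2 pairs of samples only (r = 0.512 over 9022 genes) and are not shown to pair them. It called 0 higher by median of ratios (18 members at an unadjusted p under 0.05), 0 with equal sums (13), 0 with first exons only (22), 1 by quantile normalization and 1 with unlisted genes as 0. Leaving out 1 library gave 0 (without untreated library 3) to 5 (without FSH and FBS library 3) higher; leaving out library 3 leaves its group with 1 sample, assumed to vary like the other group. The lower call was lost, giving 0, with equal sums, first exons only and unlisted genes as 0, and was 0 to 1 with 1 library left out. The cause was not tested.

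The log2 ratio of class sums moved by median of ratios and with equal sums, to 0.769 and 0.757 for sensors, 1.03 and 1.03 for chaperones, 0.876 and 0.831 for disulfide enzymes, 0.322 and 0.296 for ERAD, 1.31 and 1.26 for the translocon, and 0.881 and 0.857 for all members, from 1.03, 1.30, 1.15, 0.591, 1.59 and 1.15 without rescaling. Leaving out 1 library gave 0.957 (without FSH and FBS library 3) to 1.17 for disulfide enzymes and 1.31 (without FSH and FBS library 3) to 1.76 for the translocon. The median of all genes was 0.24 and went to 0.0037 by median of ratios, while the members' median went to 0.89. Directions that turned all concerned genes without a call: Eif2ak3 at 1.54 without FSH and FBS library 3 but -0.53 without untreated library 3, Dnajc10 at 0.62 and -0.18 in the same 2 cases, Xbp1 at -0.65 with last exons only, Os9 at -0.016, -0.049 and -0.12 and Edem3 at -0.21, -0.23 and -0.17 under the 3 rescalings, and Edem3 at -0.064 without FSH and FBS library 1 and, in those 2 cases, at 0.52 and -0.51. Unknown depth limits what an unlisted form can show.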

Other observations

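Some members were listed with more than 1 first or last exon, and the forms did not move alike. These were picked after their values were seen and were not tested. Ero1l had a last exon on chromosome 14 from 45283092 to 45286088, listed at 24.1, 26.5 and 22.7 FPKM in libraries given FSH and FBS, against 9.03, 10.2 and 5.12 FPKM in untreated libraries. A nearer last exon, from 45296627 to 45299083, was at 34.4, 18.8 and 8.96 FPKM in libraries given FSH and FBS, against 3.77 FPKM in untreated library 3 and no listing in the other 2. The nearer end thus varied widely among FSH and FBS libraries, while the farther one was even.

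Manf had its main last exon, on chromosome 9 from 106887415 to 106889225, at 68.4, 68.1 and 91.1 FPKM in libraries given FSH and FBS, against 23.3, 25.0 and 20.8 FPKM in untreated libraries. Its second last exon, from 106890031 to 106890302, was at 8.64, 8.57 and 8.72 FPKM in libraries given FSH and FBS, against 7.87, 8.31 and 7.56 FPKM in untreated libraries. The second end was close to level in all 6 libraries.

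Hspa5 had a first exon on chromosome 2 from 34772095 to 34772446, at 309.6, 398 and 451 FPKM in libraries given FSH and FBS, against 154, 122 and 135 FPKM in untreated libraries. An overlapping first exon, from 34771970 to 34772146, was at 264, 49.5 and 56.4 FPKM in libraries given FSH and FBS, against 12.8, 73.9 and 10.6 FPKM in untreated libraries. The split between these overlapping starts differed between libraries 1 and 2 of each group. Dnajb11 had an inner first exon, on chromosome 16 from 22869427 to 22869473, at 0.997, 31.6 and 0.996 FPKM in libraries given FSH and FBS, against 0.249 FPKM in untreated library 1 and no listing in the other 2. Edem1 in FSH and FBS library 3 included 4.87 FPKM from a separate first and last exon that no other library listed.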
